A study of Mus musculus with 4 samples.

Results

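The genes of the mitochondrial ribosomal proteins were followed in P4htm-/- (KO) and WT mouse cortex, taken 24 h into permanent MCAO (pMCAO), the lasting closure of the middle cerebral artery. Members were the genes whose symbol begins with Mrpl or Mrps and a digit and that have a probe set naming no other gene, and each was read from its probe set with the highest mean over the arrays. This rule gave 76 of the 18194 genes measured, 47 with an Mrpl symbol (large subunit) and 29 with an Mrps symbol (small subunit). They have 156 such probe sets in all. A further 4 probe sets name a member together with another gene and were not used, which left out Mrpl30 and Mrpl53.

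The 4 conditions were KO ipsilateral, KO contralateral, WT ipsilateral and WT contralateral. The ipsilateral cortex is the whole cortex of the occluded left hemisphere, and the contralateral cortex is that of the right hemisphere of the same operated mice, so all 4 conditions come from operated animals. KO mice are deficient in P4H-TM, a transmembrane prolyl 4-hydroxylase, and their line had been backcrossed to C57BL/6. All mice were labelled as 3 months old and of the C57BL/6J strain. RNA of 4 mice was pooled for each condition and put on 1 Affymetrix GeneChip array for the mouse genome. There are therefore no replicates, and no difference below has an error or a test. Each is a difference between 2 arrays, given beside the same quantity over all genes, and the spread between mice is unknown.

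Mitochondria carry their own ribosome, which makes only the core membrane subunits of the oxidative phosphorylation complexes from messages of mitochondrial DNA. Its ribosomal RNAs are encoded in mitochondrial DNA, but all of its proteins are encoded in the nucleus, made on cytosolic ribosomes and imported. The large subunit joins amino acids and passes the new chain through its exit tunnel to the inner membrane, and the small subunit reads the message. Many of the proteins have counterparts in bacterial ribosomes, and the rest were acquired in mitochondria. Neurons depend on oxidative phosphorylation, and the occlusion of a cerebral artery takes away the oxygen it uses.

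The targeted gene followed the labels. P4htm had log2 RMA values of 8.23 in KO ipsilateral and 8.27 in KO contralateral cortex, against 10.02 and 10.03 in WT ipsilateral and WT contralateral cortex. The median of all probe sets was 5.53 to 5.55 on each array. Neuron markers were above background on every array, 8 of 8, as were all those measured for astrocytes (8), microglia and macrophages (8), oligodendrocytes (7) and endothelium (6), where background was a log2 value of 4.79, the level under which 95% of 81 receptor probe sets lay. Markers of choroid plexus and ependyma averaged 6.60 on the KO ipsilateral array, 5.25 on the KO contralateral array, 7.05 on the WT ipsilateral array and 5.32 on the WT contralateral array, with 5, 2, 6 and 3 of 6 above background in that order. Ttr carried much of this, and without it the other 5 averaged 5.20, 4.50, 5.65 and 4.64. All 76 mitochondrial ribosomal protein genes were above background on all 4 arrays, with log2 values between 7.44 and 11.55.

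Most of these genes had their highest value in WT ipsilateral cortex and their lowest in KO ipsilateral cortex. The WT ipsilateral array gave the highest of the 4 values for 63 of the 76 genes (82.9%), while it did so for 29.6% of the 13448 genes above background on at least 1 array. The KO ipsilateral array gave the lowest value for 52 genes (68.4%), against 27.8% of the same 13448 genes. The contralateral arrays of the 2 genotypes lay between them and close to each other.

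**Figure D1:**
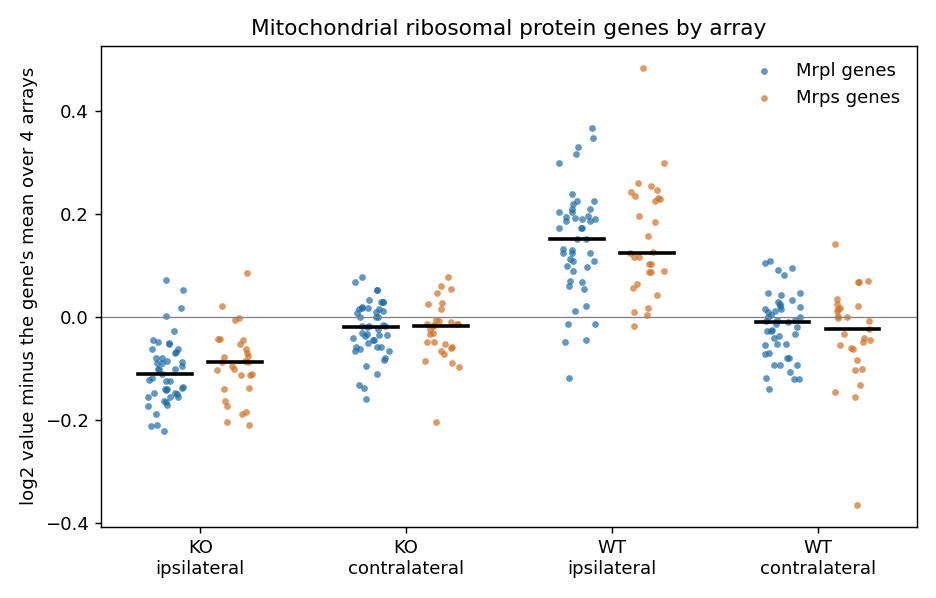
Log2 value of each mitochondrial ribosomal protein gene minus its own mean over the 4 arrays (y axis, log2) on each array (x axis). Points are 47 Mrpl genes (blue) and 29 Mrps genes (orange), and black bars are medians. The WT ipsilateral points lie mostly above 0 and the KO ipsilateral points mostly below it, for both subunits.

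The first comparison asked how the injured side differed from the uninjured side in WT mice. In WT cortex 67 of the 76 genes (88.2%) were higher on the ipsilateral side, 6 were lower and 3 were equal, where 45% of the 13320 genes above background on either array were higher. Their median log2 difference, ipsilateral minus contralateral, was 0.15 with quartiles at 0.06 and 0.28, while the median was 0.00 over all 18194 genes and -0.04 over the 7233 genes whose level lies in the same range as that of the mitochondrial ribosomal protein genes. The shift was small for each gene. A lower limit of 0.322 on the log2 scale, which means 25% higher or 20% lower, was reached upward by 11 genes (14.5%, against 8.72% of all genes tested). Only Mrps6 passed 1.5-fold, or 0.585, in either direction (1.32%, against 2.86%).

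Mrps6, the mitochondrial form of bacterial ribosomal protein S6, stood apart. Its log2 values were 10.43 in KO ipsilateral, 10.14 in KO contralateral, 10.83 in WT ipsilateral and 9.98 in WT contralateral cortex. Both ipsilateral values were above both contralateral values, so the log2 difference between sides was positive in KO (0.29) as well as in WT (0.85). A second probe set of Mrps6 read 9.29, 9.06, 9.74 and 9.06 on the same arrays, with side differences of 0.23 in KO and 0.68 in WT. In the mouse annotation the gene of Slc5a3, a transporter of myo-inositol that responds to osmotic stress, overlaps that of Mrps6. The probe set used for Slc5a3 read 10.53 in KO ipsilateral, 10.08 in KO contralateral, 10.33 in WT ipsilateral and 9.93 in WT contralateral cortex. Its side difference on the log2 scale was 0.45 in KO and 0.40 in WT, while further Slc5a3 probe sets had 0.33 in KO and 0.46 in WT, and 0.22 in KO and 0.55 in WT. All 3 Slc5a3 probe sets were thus higher on the ipsilateral side of both genotypes, as Mrps6 was. The part of this overlap in the Mrps6 values was not tested.

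After Mrps6, the genes with the largest side differences in WT were of the large subunit. Mrpl41, a protein found only in mitochondrial ribosomes, had log2 values of 10.97 in KO ipsilateral, 11.12 in KO contralateral, 11.55 in WT ipsilateral and 11.09 in WT contralateral cortex. A second probe set of Mrpl41 read 10.52, 10.63, 10.99 and 10.61. In both the WT ipsilateral array stood above the other 3, which lay within 0.15 of each other, and the WT side difference of the first was 0.46. Mrpl52, also without a bacterial counterpart, had 11.00 in KO ipsilateral, 10.94 in KO contralateral, 11.35 in WT ipsilateral and 10.91 in WT contralateral cortex. Mrpl57 had 10.02, 10.08, 10.48 and 10.07 in the same order. Again only the WT ipsilateral value stood out, and the WT side differences were 0.44 and 0.41. A second, dimmer probe set of Mrpl57 read 6.62, 6.67, 6.84 and 6.87, with a WT side difference of -0.03. In the small subunit Mrps28, counterpart of bacterial S1, had a WT side difference of 0.40, as did Mrps22, a protein whose human gene is mutated in a mitochondrial disease.

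A few genes went the other way in WT. Mrpl38 was lower on the WT ipsilateral side by a log2 difference of -0.15, Mrpl1 by -0.11, Mrps15 by -0.10, Mrpl9 by -0.09, Mrpl4 by -0.06 and Mrps30 by -0.03. Mrpl1 forms the stalk over which spent tRNAs leave the ribosome, and Mrpl4 lines the exit tunnel. These 6 differences were all smaller than 0.20. That is the SD of the gap between the WT side differences of a gene's chosen and further probe sets. It covers 63 further probe sets of 36 genes, 29 of them over 2 log2 units dimmer than the chosen one. Many of the upward differences were smaller too, since 32 of the 76 genes exceeded that SD upward and 44 lay within it. In the ipsilateral KO minus WT comparison the SD was also 0.20, and 45 genes were lower in KO by more than that and 31 lay within it. The share of all genes past these limits was not counted, so how unusual such counts are is unknown.

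In KO cortex the direction was the opposite, and the differences were smaller. Of the 76 genes, 63 (82.9%) were lower on the ipsilateral side and 13 were higher, where 54.7% of the 13309 genes tested were lower. The median log2 difference, ipsilateral minus contralateral, was -0.085 with quartiles at -0.13 and -0.03, against -0.01 over all 18194 genes and -0.03 over genes at the level of the mitochondrial ribosomal protein genes. None of the 76 genes reached 0.322 downward (against 2.41% of genes tested), and none passed 1.5-fold in either direction (against 1.7%). The SD of the gap between chosen and further probe sets was 0.125 for the KO side difference. By more than that SD, 21 of the 76 genes were lower and 1 was higher, while 54 lay within it. Here too the share of all genes was not counted. The largest downward log2 differences were those of Mrpl28, Mrpl54 and Mrps24, each at -0.22, followed by Mrpl13, Mrpl48 and Mrps16 at -0.20.

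Mrps24, the counterpart of bacterial S3, which in bacteria guards the entry of the message, shows the pattern of these genes. It had log2 values of 9.82 in KO ipsilateral, 10.04 in KO contralateral, 10.26 in WT ipsilateral and 9.98 in WT contralateral cortex. Its second probe set read 9.75, 9.91, 10.13 and 9.92. The contralateral values of the 2 genotypes were close, and the ipsilateral values lay on either side of them. Mrpl28 had 9.79 in KO ipsilateral, 10.01 in KO contralateral, 10.21 in WT ipsilateral and 9.99 in WT contralateral cortex, and Mrpl54, a large subunit protein of mitochondria alone, had 7.90, 8.12, 8.28 and 8.05. Their order over the arrays was that of Mrps24.

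The genes that were higher on the KO ipsilateral side did so by little. After Mrps6, the largest KO side differences were 0.09 for Mrpl39, 0.07 for Mrpl18, and 0.06 for Mrpl17, Mrpl47 and Mrpl52. Mrpl39, a large subunit protein without a bacterial counterpart, had nearly equal values on all arrays, at 11.18 in KO ipsilateral, 11.09 in KO contralateral, 11.14 in WT ipsilateral and 11.10 in WT contralateral cortex.

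**Figure D2:**
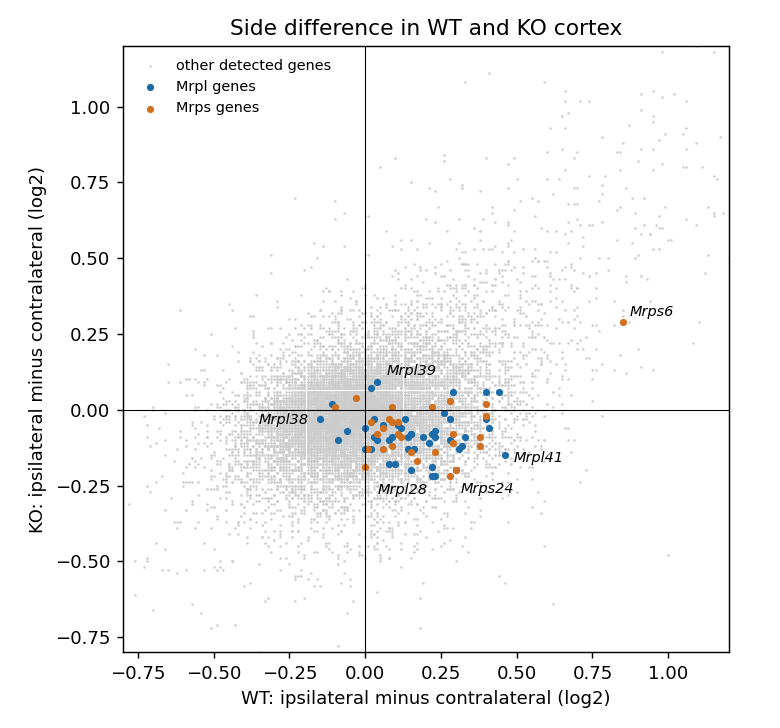
Ipsilateral minus contralateral log2 difference in KO (y axis) against that in WT (x axis) for 47 Mrpl genes (blue), 29 Mrps genes (orange) and other genes above background (grey). Of the 13448 genes above background 13356 lie within the axes and 92 lie outside, and most mitochondrial ribosomal protein genes sit to the right of 0 and below it.

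The side differences of the 2 genotypes share no array and were set against each other gene by gene. In 57 of the 76 genes (75%) the difference was positive in WT and negative in KO, which was so for 2821 of the 13448 genes above background (21%). It was positive in both genotypes in 10 genes, negative in both in 3, and negative in WT and positive in KO in 3, while 3 had a difference of 0 in WT. Over the 13448 genes above background 3088 were positive in both, 4377 negative in both and 2423 negative in WT and positive in KO. Among the 76 genes the KO side difference was the smaller one in 70 and the larger one in 6, with a median gap, KO minus WT, of -0.24. Across the 76 genes the size of a gene's WT side difference said little about its KO side difference (Pearson r = 0.19, Spearman rho = -0.06, and r = -0.07 without Mrps6). Across all 13448 genes above background r was 0.59 and rho 0.27. These correlations cover unlike ranges and cannot be compared directly. The SD of the KO side difference was 0.085 over the 76 genes and 0.216 over the 13448. Genes on shared arrays are not independent replicates, so these are descriptions.

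The next comparison set KO against WT on the uninjured side, where the 2 genotypes hardly differed. On the contralateral side 38 of the 76 genes (50%) were higher in KO, 35 were lower and 3 were equal, against 43.1% of 13207 genes tested that were higher. Their median log2 difference, KO minus WT, was 0.005 with quartiles at -0.05 and 0.06. No gene reached 0.322 upward (against 2.37% of genes tested) and none passed 1.5-fold in either direction (against 0.386%). Mrps34 (0.18), Mrps6 (0.16), Mrpl15 (0.15), Mrpl45 (0.14), Mrpl12 and Mrps18c (0.12 each) had the highest log2 differences. Mrps15 (-0.24), Mrpl18 (-0.23), Mrpl36 and Mrpl50 (-0.19 each) and Mrps18a (-0.13) had the lowest.

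The genes with the lowest of these contralateral differences were lower in KO on both sides. Mrpl36, the small zinc-binding protein bL36m, had log2 values of 8.23 in KO ipsilateral and 8.29 in KO contralateral cortex, against 8.48 in both WT ipsilateral and WT contralateral cortex. Mrpl50 had 8.49 and 8.52 in KO, against 8.74 and 8.71 in WT. Both were lower in KO on both sides. Mrpl18 behaved alike, with 9.57 in KO ipsilateral and 9.50 in KO contralateral cortex, against 9.75 and 9.73 in WT. So did Mrps15, with 9.25 and 9.24 in KO against 9.38 and 9.48 in WT, and Mrps18a, with 9.61 and 9.65 against 9.80 and 9.78. A second probe set of Mrps15 was lower in KO too, by -0.14 on the contralateral and -0.05 on the ipsilateral side. A dimmer one was higher in KO, by 0.33 and 0.29. Being lower in KO on both sides is not particular to these genes, since 35 of the 76 were lower in KO on the contralateral side and 70 on the ipsilateral side. Its share over all genes was not counted.

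On the injured side the genotypes separated. Of the 76 genes 70 (92.1%) were lower in KO than in WT ipsilateral cortex, 4 were higher and 2 were equal, where 50.8% of 13363 genes tested were lower. The median log2 difference, KO minus WT, was -0.25 with quartiles at -0.36 and -0.15, against -0.01 over all 18194 genes and 0.00 over genes at the same level. Here 25 genes (32.9%) reached 0.322 downward, against 6.97% of genes tested, and none passed 1.5-fold in either direction, against 0.666%. This comparison uses the same 2 ipsilateral arrays as the side comparisons, so a gene that is high on the WT ipsilateral array is high in one and low in the other by construction, and the counts are not separate evidence. Mrpl41 came nearest to 1.5-fold with -0.58. It passed that limit only when the arrays were scaled in another way or its probe sets, an undetected one included, were averaged.

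Of the 25 genes, 15 have an Mrpl symbol and 10 an Mrps symbol. After Mrpl41 the lowest log2 differences were -0.51 for Mrpl20, -0.47 for Mrps16, -0.46 for Mrpl57 and -0.44 for Mrps24. Mrpl20, whose bacterial counterpart is needed to assemble the large subunit, had values of 10.19 in KO ipsilateral, 10.22 in KO contralateral, 10.70 in WT ipsilateral and 10.30 in WT contralateral cortex. Mrps16, whose human gene is mutated in a fatal disease of mitochondrial translation, had 9.62, 9.82, 10.09 and 9.79 in the same order. In Mrpl20 the KO ipsilateral value was close to both contralateral values and the WT ipsilateral value was above them, while in Mrps16 it was also below them.

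The 6 genes that were not lower in KO ipsilateral cortex were Mrpl1, Mrpl39, Mrpl45 and Mrps30, which were higher, and Mrpl9 and Mrpl38, which were equal. Mrpl1 had log2 values of 7.67 in KO ipsilateral, 7.65 in KO contralateral, 7.48 in WT ipsilateral and 7.59 in WT contralateral cortex, so its KO minus WT difference was 0.19. A second probe set of Mrpl1 read 6.94, 7.01, 7.38 and 7.03, with a difference of -0.44. The 2 probe sets of Mrpl1 thus went in opposite directions, and its value is uncertain. Mrps30 (8.96, 8.92, 8.92 and 8.95) and Mrpl45 (9.14, 9.19, 9.11 and 9.05), which anchors the ribosome to the inner membrane, had nearly level values in the same order of arrays.

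**Figure D3:**
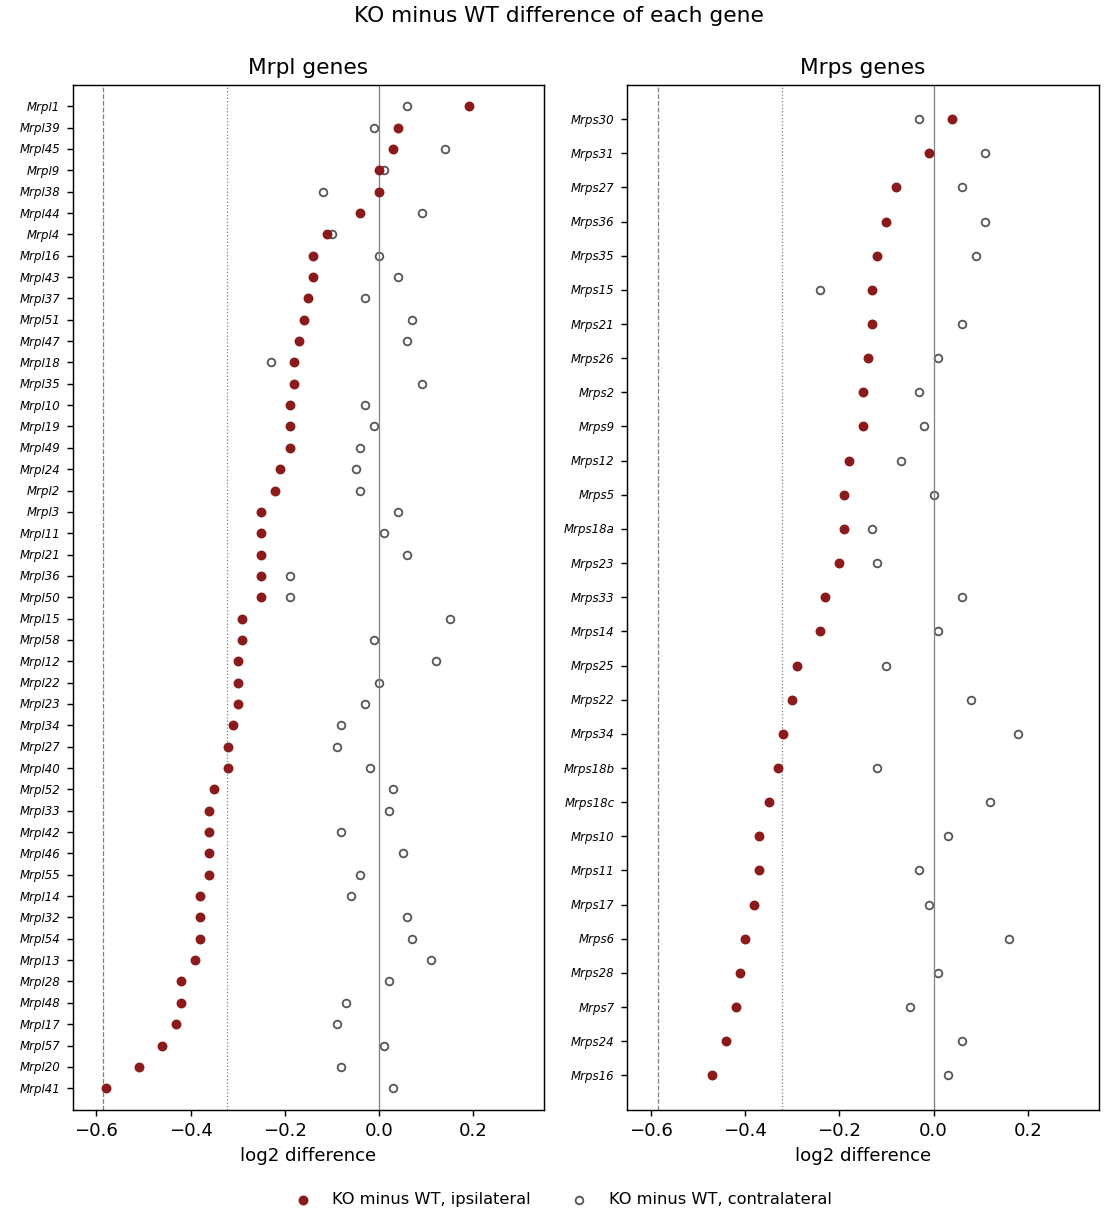
KO minus WT log2 difference (x axis) of each mitochondrial ribosomal protein gene (rows, sorted by the ipsilateral difference), with Mrpl genes in the left panel and Mrps genes in the right. Filled points are ipsilateral and open points contralateral, dotted lines mark 20% lower and dashed lines 1.5-fold lower. The filled points reach from 0.19 for Mrpl1 to -0.58 for Mrpl41, and the open points lie between -0.24 and 0.18.

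The genes with the lowest mean value besides Mrpl1 were Mrps27 and Mrpl37. Mrps27 had 7.44 in KO ipsilateral, 7.57 in KO contralateral, 7.52 in WT ipsilateral and 7.51 in WT contralateral cortex, and Mrpl37 had 7.71, 7.80, 7.86 and 7.83. In both the KO ipsilateral value was the lowest, with ipsilateral KO minus WT differences of -0.08 and -0.15.

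The 2 subunits had similar values. The median KO minus WT log2 difference in ipsilateral cortex was -0.25 for the 47 Mrpl genes and -0.23 for the 29 Mrps genes, with 42 and 28 of them below 0. The WT side difference had a median of 0.15 for Mrpl and 0.12 for Mrps genes, and the KO side difference had medians of -0.09 and -0.08. Symbols do not always give the place in the ribosome. Mrps30 and Mrps18a sit in the large subunit of the mammalian mitochondrial ribosome, and Mrps36 is a part of the 2-oxoglutarate dehydrogenase complex and no ribosomal protein. With the genes placed by structure (49 large, 26 small), all 26 small subunit genes were below 0 in the ipsilateral KO minus WT comparison, with a median of -0.265, against -0.25 for the large subunit.

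Mrps36 itself had log2 values of 9.86 in KO ipsilateral, 9.95 in KO contralateral, 9.96 in WT ipsilateral and 9.84 in WT contralateral cortex, and its ipsilateral KO minus WT difference was -0.10. The 45 proteins with bacterial counterparts had a median ipsilateral log2 difference of -0.29, KO minus WT, and the 30 specific to mitochondria one of -0.215. Their WT side differences had medians of 0.21 and 0.095 in that order, and their KO side differences -0.08 and -0.085. The ranges of the 2 classes overlapped widely, from -0.51 to 0.19 for proteins with bacterial counterparts and from -0.58 to 0.04 for those specific to mitochondria, both as KO minus WT in ipsilateral cortex.

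Among the proteins of the factor-binding stalk, Mrpl12, which recruits translation factors to the ribosome, had log2 values of 10.04 in KO ipsilateral, 10.13 in KO contralateral, 10.34 in WT ipsilateral and 10.01 in WT contralateral cortex. Mrpl10, which holds Mrpl12 at the stalk, had 8.31, 8.36, 8.50 and 8.39 in the same order, and Mrpl11, at the stalk base, had 9.78, 9.96, 10.03 and 9.95. All 3 were highest in WT ipsilateral cortex, and Mrpl10 and Mrpl11 were lowest in KO ipsilateral cortex while Mrpl12 was lowest in WT contralateral cortex. Their ipsilateral KO minus WT differences were -0.30 for Mrpl12, -0.19 for Mrpl10 and -0.25 for Mrpl11, around the median of all 76 genes. Mrps12, the counterpart of the bacterial decoding protein S12, had 10.16 in KO ipsilateral, 10.19 in KO contralateral, 10.34 in WT ipsilateral and 10.26 in WT contralateral cortex, an ipsilateral KO minus WT difference of -0.18.

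The proteins around the exit tunnel differed among themselves. The ipsilateral KO minus WT log2 difference was -0.30 for Mrpl22 and Mrpl23, -0.21 for Mrpl24, -0.17 for Mrpl47, -0.11 for Mrpl4 and 0.03 for Mrpl45. The 3 Mrps18 genes differed as well, with -0.35 for Mrps18c, -0.33 for Mrps18b and -0.19 for Mrps18a, the one that sits in the large subunit. Mrpl58, a peptidyl-tRNA hydrolase that frees stalled ribosomes, had 9.54 in KO ipsilateral, 9.72 in KO contralateral, 9.83 in WT ipsilateral and 9.73 in WT contralateral cortex, a difference of -0.29 between the ipsilateral values. A second probe set of Mrpl58 had a difference of 0.06.

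**Figure D4:**
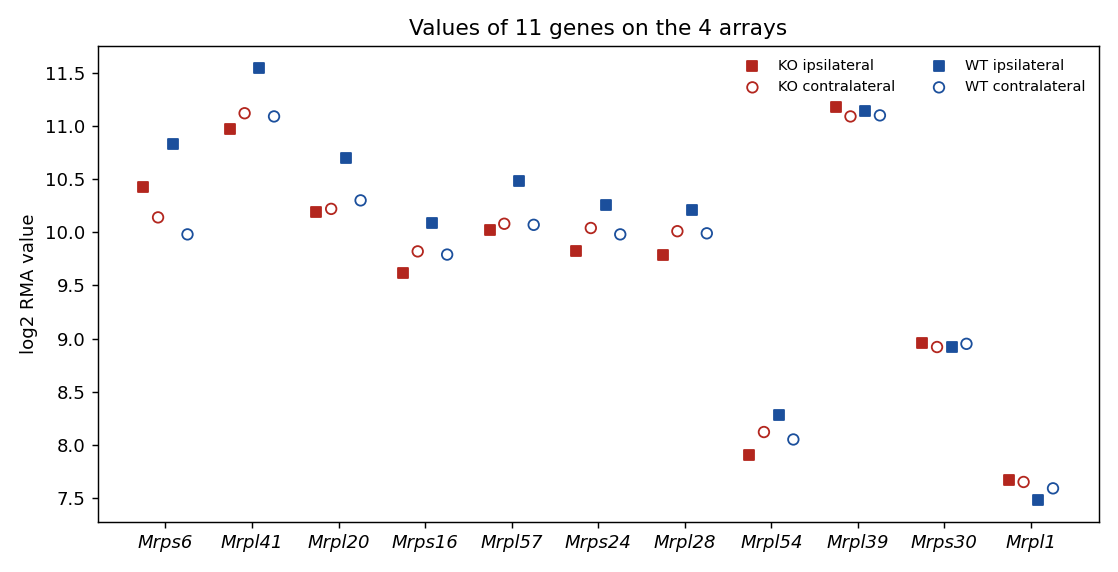
Log2 RMA values (y axis) of 11 mitochondrial ribosomal protein genes (x axis) on the 4 arrays, as squares for ipsilateral and circles for contralateral cortex, red for KO and blue for WT. In Mrpl41, Mrps16 and Mrps24 the WT ipsilateral square is the highest and the KO ipsilateral square the lowest, while the 4 values of Mrpl39 and Mrps30 nearly coincide. Heights are not comparable between genes, since each probe set binds with its own strength.

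Of the 63 further probe sets of these genes that were above background on all arrays, 41 had the same sign as the chosen one in the ipsilateral KO minus WT comparison and 18 the opposite, with a median log2 difference of -0.14. In the KO side comparison 50 had the same sign and 13 the opposite, with a median of -0.08. In the WT side comparison 37 had the same and 23 the opposite sign, 35 were above 0 and the median was 0.05, against 0.15 for the chosen probe sets. In the contralateral comparison 36 had the same sign and 21 the opposite, with a median of 0.00. Among the 34 within 2 log2 units of the chosen one, a split made after the values were seen, 26 had the same sign in the ipsilateral KO minus WT comparison, with a median of -0.29. Among the 29 dimmer ones 15 did, with a median of -0.04. Genes with a detected probe set that opposed the chosen one by over 0.3 were Mrpl1, Mrpl15, Mrpl17, Mrpl34, Mrpl35, Mrpl48, Mrpl57, Mrpl58, Mrps2, Mrps9, Mrps10, Mrps14 and Mrps15, in at least 1 comparison.

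Other genes of the same organelle were read from lists in the same way. The 81 nuclear genes of oxidative phosphorylation subunits, which form the complexes that mitochondrial translation completes, had a median ipsilateral KO minus WT log2 difference of -0.23, with 69 below 0 and Cox7c past 1.5-fold lower. Their side differences had medians of -0.08 in KO and 0.17 in WT. The 44 cytosolic ribosomal protein genes had -0.24, with 43 below 0 and Rpl12 past 1.5-fold lower, and side differences of -0.03 in KO and 0.225 in WT. These medians were near those of the mitochondrial ribosomal protein genes, so the pattern was not limited to the mitochondrial ribosome. Of 5 mitochondrial ribosomal proteins with other symbols 4 were measured. Chchd1 (-0.35), Gadd45gip1 (-0.28) and Ptcd3 (-0.22) were lower in KO ipsilateral cortex, and Dap3, the GTP-binding protein of the small subunit, had a difference of 0.03.

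The remaining genes of mitochondrial translation had medians close to 0. The ipsilateral KO minus WT log2 difference had a median of -0.005 over 16 mitochondrial aminoacyl-tRNA synthetases, which load the tRNAs (8 below 0), -0.05 over 13 translation factors (11 below 0) and -0.06 over 25 ribosome assembly factors (17 below 0). Within them single genes, named after their values were seen, had differences as large as those of the leading ribosomal protein genes. Malsu1, which guards the unfinished large subunit against early joining, had 8.65 in KO ipsilateral, 8.71 in KO contralateral, 9.17 in WT ipsilateral and 8.69 in WT contralateral cortex. Slirp, which stabilises mitochondrial messages together with Lrpprc, had 10.04, 10.17, 10.59 and 10.13 in the same order. In both only the WT ipsilateral value stood out, and Yars2, the synthetase for tyrosine, had an ipsilateral difference of -0.55. Other synthetases were higher in KO ipsilateral cortex, by 0.31 for Wars2, 0.29 for Sars2 and 0.21 for Ears2. The values of Wars2 and Sars2 were near background.

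Other lists of mitochondrial genes and their regulators had medians near 0 over genes that went both ways. The median ipsilateral KO minus WT log2 difference was -0.06 over 11 genes of mitochondrial transcription and DNA maintenance (8 below 0), -0.01 over 10 regulators of mitochondrial genes (5 below 0) and -0.015 over 18 genes of the citric acid cycle and matrix (10 below 0). Single differences in these lists, named after their values were seen, went both ways. Downward they were as large as -0.45 for Hspe1, a chaperonin of the matrix, -0.31 for Ssbp1, -0.29 for Top1mt, and -0.27 for Tefm and Gabpb1. Upward the largest were 0.26 for Ppargc1b and 0.20 for Gabpa, both in the list of regulators. Nrf1, an activator of many nuclear genes of the organelle, had 6.06 in KO ipsilateral, 6.23 in KO contralateral, 5.92 in WT ipsilateral and 5.93 in WT contralateral cortex. Myc, which drives ribosome production, had 6.85, 6.42, 6.92 and 6.26. Nrf1 was higher in KO on both sides. Myc was higher on the ipsilateral side of both genotypes. So were 10 of the 76 mitochondrial ribosomal protein genes, among them Mrps6 and Mrpl52, and 3088 of the 13448 genes above background. In 57 of the 76 (75%, against 21% of the 13448) the ipsilateral side was higher in WT and lower in KO. The part of Nrf1 or Myc in these values was not tested. Esrra, a nuclear receptor that acts on the same genes, had 8.58, 8.77, 8.76 and 8.72, lowest in KO ipsilateral cortex, and its ipsilateral KO minus WT difference was -0.18.

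**Figure D5:**
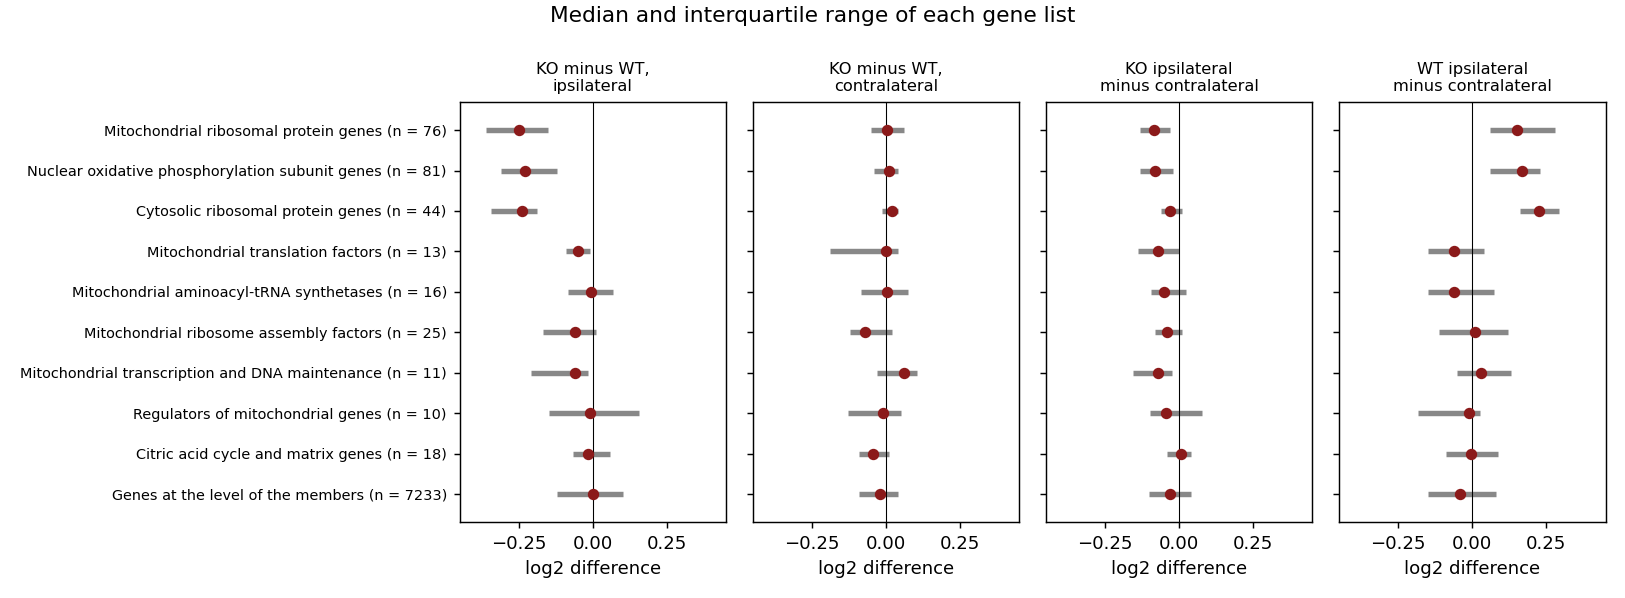
Median (point) and interquartile range (bar) of the log2 difference (x axis) over the genes of each list (rows, with the number measured) in the 4 comparisons (panels). The mitochondrial ribosomal protein genes at -0.25, oxidative phosphorylation genes at -0.23 and cytosolic ribosomal protein genes at -0.24 lie lower than the other 7 rows in the ipsilateral KO minus WT panel.

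Control probe sets of the arrays themselves also differed, only in part in the direction of this pattern. The 8 probe sets for the 3' end of bacterial transcripts used as poly-A controls had a median log2 value of 8.13 on the KO ipsilateral, 8.065 on the KO contralateral, 8.35 on the WT ipsilateral and 8.055 on the WT contralateral array. All 8 were lower on the KO than on the WT ipsilateral array, by a median log2 difference of -0.19 that ranged between -0.25 and -0.10, and all 8 were higher on the WT ipsilateral than on the WT contralateral array, by a median of 0.29. Between the KO sides their median difference was 0.065, with 6 of 8 higher on the ipsilateral array, and between the contralateral arrays it was 0.005. They are no mouse RNA, and whether such controls were added is not given in the sources used here. Of the 18 hybridization controls, added after labelling in this array system, 16 were higher on the KO than on the WT ipsilateral array, with a median of 0.085. On the contralateral side 17 of these 18 were higher on the KO array, with a median of 0.11. Their part in the values of the mitochondrial ribosomal protein genes was not tested.

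Measures of RNA integrity and of the cells in the tissue also differed between arrays. The 3' minus 5' gap of Gapdh was 1.16 on the KO ipsilateral and 1.33 on the KO contralateral array, against 1.10 and 0.94 on the WT ipsilateral and WT contralateral arrays, and that of actin was 1.78 and 1.97 in KO, against 1.73 and 1.67 in WT. Both gaps were wider on the KO arrays, and widest on the KO contralateral array. Neuron markers averaged 12.10 on the KO ipsilateral, 12.06 on the KO contralateral, 11.97 on the WT ipsilateral and 12.09 on the WT contralateral array, and 8 of 8 were higher on the KO than on the WT ipsilateral array (median log2 difference 0.135). Markers of astrocytes (-0.165), microglia and macrophages (-0.075), oligodendrocytes (-0.19), endothelium (-0.115) and choroid plexus and ependyma (-0.27) had negative medians in that comparison, and those of neutrophils and blood had 0.135. Their part in the differences was not tested, and in whole cortex fewer cells of a type and less RNA per cell cannot be told apart.

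Promoter sequences were read for motifs of factors known to act on genes of this kind. RefSeq promoters of the assembly GRCm38.p6, 250 bases before to 50 after each start, were found for 67 of the 76 genes and for 27025 genes in all. Both strands were searched, and none of the motifs contains another. GCGCANGCG, the core of the site of NRF1, stood in 15 of the 67 genes (22.4%, against 7.03% of all genes), CCGGAAG, a site of the ETS family to which GABP belongs, in 25 (37.3%, against 9.93%), AAGATGGCG, a site of YY1, in 8 (11.9%, against 1.64%) and TCAAGGTCA, a site of the oestrogen-related receptors, in 0 (against 0.47%). Genes with and without a match had similar values. The median ipsilateral KO minus WT log2 difference was -0.19 with and -0.25 without the NRF1 motif, -0.29 and -0.245 for the ETS motif, and -0.22 and -0.25 for the YY1 motif. A match is a description of the letters and not a site in use.

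The sequences below show genes that carry the NRF1 motif at both ends of the ipsilateral comparison, beside one with the ETS motif and one with none of the 4. Each is the 100 bases before the start, 5' to 3' on the gene's own strand, in lower case with motif matches in capitals. Mrpl57 (chr14:57826139-57826238, plus strand, log2 difference -0.46) and Mrpl17 (chr7:105811088-105811187, minus strand, -0.43) were among the lower genes in KO ipsilateral cortex, while Mrpl9 (chr3:94443236-94443335, plus strand, 0.00) and Mrpl45 (chr11:97315616-97315715, plus strand, 0.03) were not. Mrpl17 holds 2 NRF1 matches in these bases, Mrpl17 and Mrpl57 also have an ETS match elsewhere in their promoters, and in Mrpl9 the matches on the 2 strands overlap. Mrpl52 (chr14:54426809-54426908, plus strand, -0.35) holds an ETS match, and Mrpl41 (chr2:24975099-24975198, minus strand, -0.58), the lowest of all, holds no match in these bases.
Mrpl57: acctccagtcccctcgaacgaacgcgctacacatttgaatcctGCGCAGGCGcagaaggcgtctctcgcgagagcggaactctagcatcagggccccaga
Mrpl17: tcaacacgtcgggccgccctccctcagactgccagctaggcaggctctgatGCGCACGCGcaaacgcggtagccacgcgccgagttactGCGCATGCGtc
Mrpl9: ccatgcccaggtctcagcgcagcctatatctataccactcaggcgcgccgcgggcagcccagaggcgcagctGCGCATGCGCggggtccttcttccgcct
Mrpl45: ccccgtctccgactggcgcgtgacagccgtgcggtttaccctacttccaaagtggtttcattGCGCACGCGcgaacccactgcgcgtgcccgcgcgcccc
Mrpl52: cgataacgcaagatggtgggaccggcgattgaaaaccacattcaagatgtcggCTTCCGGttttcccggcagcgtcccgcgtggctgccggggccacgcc
Mrpl41: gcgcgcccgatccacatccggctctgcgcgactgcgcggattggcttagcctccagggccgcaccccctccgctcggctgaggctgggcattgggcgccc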

How the data were processed

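RNA of the ipsilateral and contralateral cortex of 4 KO and 4 WT mice was pooled by condition and measured on 4 Affymetrix GeneChip arrays for the mouse genome. The authors scanned the arrays, quantified them with GeneChip Operating System and normalized them with GenePattern, per the methods, and with RMA, per the submitters' processing notes. The sources used here give no versions. The deposited log2 values per probe set were used as they are, with base 2 taken from their range of 2.51 to 14.9. RMA's quantile step removes any shift shared by all genes of an array, and the values carry 2 decimals. The number of arrays limits the precision.

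Of 45101 probe sets 34958 name 1 gene in the platform annotation, 932 name several and 9211 were unnamed there. Symbols of 34754 were updated by Entrez ID through RefSeq (GRCm38.p6). Each gene was read from its probe set with the highest mean. Differences are KO minus WT or ipsilateral minus contralateral. A gene was counted if it was above background (log2 4.79) on at least 1 of the 2 arrays compared, and 1.5-fold was the main limit and 0.322 on the log2 scale the lower one. With 1 array per condition no test was run. Genes named are those past 1.5-fold, the 5 highest and 5 lowest in each comparison, those with the highest or lowest mean level, those whose detected probe sets opposed each other by over 0.3, and 7 named for their role, with others named to account for counts or for their place in the ribosome. The members and lists were chosen with earlier results of these data known. Alternatives were the mean of all probe sets, removal of probe sets ending in _x_at or _s_at, median centring, cyclic loess (limma 3.58.1 in R 4.3.3), platform symbols, another membership, other background filters, other fold limits and subunits by structure. Scripts in Python 3.11.15 with pandas 2.3.3 and numpy 2.4.6 were tested on simulated data.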

Additional observations from a re-analysis of the deposited data

Results flagged for a closer look

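The side difference of the mitochondrial ribosomal protein genes ran in opposite directions in the 2 genotypes. Its median on the log2 scale was -0.085 in KO and 0.15 in WT, and it was -0.09 in KO and 0.15 in WT for the Mrpl genes and -0.08 in KO and 0.12 in WT for the Mrps genes. Each rests on 1 array per condition, and the difference between the genotypes was not tested.

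Single genes were picked out where both genotypes differed between sides by at least 0.2 on the log2 scale in opposite directions. These were Mrpl13 (-0.20 in KO and 0.30 in WT), Mrpl28 (-0.22 in KO and 0.22 in WT), Mrpl54 (-0.22 in KO and 0.23 in WT), Mrps16 (-0.20 in KO and 0.30 in WT) and Mrps24 (-0.22 in KO and 0.28 in WT). Mrpl13 had log2 values of 10.33 in KO ipsilateral, 10.53 in KO contralateral, 10.72 in WT ipsilateral and 10.42 in WT contralateral cortex. Again none of these differences was tested, and the share of all genes that meet this rule was not counted.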

How the results depend on the processing

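No paired analysis was possible because each condition has 1 array of pooled RNA, and for the same reason no array could be left out. Over 7 alternatives the median log2 difference stayed between -0.28 and -0.208 for KO minus WT in ipsilateral cortex, between -0.015 and 0.0264 for KO minus WT in contralateral cortex, between -0.0853 and -0.0654 for the KO side difference and between 0.12 and 0.188 for the WT side difference. Placing genes by structure moved no subunit median by 0.05 or more. Mrpl41 passed 1.5-fold lower in KO ipsilateral cortex, giving 1 gene in place of 0, with median centring (-0.59) and with cyclic loess (-0.586). It also did so with the mean of its probe sets (log2 difference -0.61). That mean includes a probe set below background on all 4 arrays (-0.77), while the detected ones had -0.58 and -0.47. At a log2 limit of 0.322, 25 genes passed downward. In the WT side comparison 1 gene passed 1.5-fold upward, 11 passed a log2 limit of 0.322 and 0 passed 2-fold.

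With the mean of all probe sets of a gene, an alternative added after seeing the data, the median WT side difference was -0.0475 for mitochondrial ribosomal proteins with other symbols, 0.0167 for aminoacyl-tRNA synthetases, 0.04 for translation factors and 0.055 for regulators. The KO side difference was 0.005 for translation factors, the ipsilateral KO minus WT difference -0.095 for proteins with other symbols, and the contralateral one 0.0525 for regulators. In 6 of these 7 the sign changed, the exception being the ipsilateral value for proteins with other symbols, and the cause was not tested. Over all alternatives 74 counts stayed within 1.5 times and 6 did not, and 65 medians stayed within 0.05 of the reported value. In all 11 medians changed sign, none of them further from 0 than 0.105 as reported, and 2 of these were the contralateral median of the mitochondrial ribosomal protein genes, reported as 0.005.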
